A study of Mus musculus with 34 samples.

Results

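The 9 genes described here mark the steps from neural stem cell to newborn neuron in the adult brain: Sox2, Hes5, Nes, Eomes, Igfbpl1, Neurod1, Sox11, Dcx and Calb2. They were picked by symbol out of the 23951 genes listed in expression tables of the mouse hippocampus and of sorted cortical nuclei, and all 9 symbols were present. The question was whether these transcripts differ when Hdac1, which encodes a histone deacetylase, is deleted through Nestin-Cre, a recombinase driven by a promoter that is active in neural progenitors.

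The hippocampal samples came from 4 genotypes. Control mice were Hdac1f/f without Cre (n = 4, aged 13 to 14 months). Hdac1 cKO mice were Hdac1f/f, Nestin-Cre (n = 5, 13 to 14 months). 5XFAD mice were Hdac1f/f and carried the 5XFAD transgenes, with mutant human APP among them, under the neuronal Thy1 promoter (n = 6, 13 months). The Hdac1 cKO/5XFAD mice carried all of these alleles (n = 5, 13 months). The floxed Hdac1 alleles were thus shared by every hippocampal group, and the presence of the Cre transgene and the loss of Hdac1 cannot be told apart. The 5XFAD transgenes coincide with the age label, 13 against 13 to 14 months, and with a separate block of the sample list. These cannot be told apart from 5XFAD either. The nuclei were sorted for GFAP, an astrocyte protein, from the cortex of 13-month-old Hdac1f/f (n = 3) and Hdac1f/f, Nestin-Cre mice (n = 4). Nestin-Cre recombines in the progenitors that give rise to both neurons and astrocytes, so the deletion is not restricted to the stem cells of the aged hippocampus, and microglia keep the gene. Each sample was 1 male mouse. Another 7 of the 34 listed samples, comprising 1 GFAP+ control and the 6 chromatin immunoprecipitation samples, were not analysed here.

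Adult hippocampal neurogenesis takes place in the subgranular zone of the dentate gyrus. Radial glia-like stem cells, held in an undifferentiated state by Notch signalling, give rise to intermediate progenitors, then to neuroblasts and to immature granule neurons, and the process declines steeply with age. Several of the 9 genes are also used outside this lineage: Sox2 and Hes5 in astrocytes, Neurod1 in mature granule neurons, and Calb2 in interneurons and hilar mossy cells. In whole tissue, fewer cells of a type and less RNA per cell cannot be told apart.

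The libraries held enough reads for most of the genes. Values are in FPKM, that is, fragments scaled by transcript length and by the size of the library. Where the values of a gene are whole multiples of what 1 fragment is worth, the number of fragments behind each can be read from the table. This held, to within 0.12 of a whole number, for all 9 genes in the hippocampus and for 6 in the nuclei. No such step was found there for Dcx, Sox2 and Hes5. The search went up to 400 fragments in the library with the fewest, so it could not settle this for genes as high as Sox2 and Hes5. The relative depth of the hippocampal libraries ran from 0.754 to 2.35 times that of the first control. Hdac1, the targeted gene, had levels of 6.42, 8.71, 10.7 and 5.91 FPKM in control mice. The Hdac1 cKO mice had 3.00, 3.03, 2.62, 2.70 and 2.36 FPKM. All Hdac1 cKO mice were thus below all controls, and Hdac1 fell by 1.23 on the log2 scale (SE 0.16, adjusted p = 0.0236 by limma with Benjamini-Hochberg adjustment). The adjusted p was 0.0548 without control mouse 2, 0.0874 without control mouse 3 and 0.0514 to 0.0725 without Hdac1 cKO mouse 1, 2, 3 or 4. In the Hdac1 cKO/5XFAD mice Hdac1 was 1.82, 2.52, 1.15, 1.86 and 2.24 FPKM, again without overlap with the controls (log2 change -1.60, SE 0.20, adjusted p = 0.00266 by limma). With the replicate number as a block or with transthyretin, a choroid plexus gene, in the model, both changes kept their size while their adjusted p rose above 0.05 (log2 change -1.19 and -1.10 for Hdac1 cKO, -1.64 and -1.52 for Hdac1 cKO/5XFAD). In the nuclei the groups overlapped, with 14.5, 9.91 and 22.3 FPKM in controls and 9.71, 11.5, 5.80 and 8.73 FPKM in Hdac1 cKO (log2 change -0.70, SE 0.28, adjusted p = 0.984 by limma).

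None of the 9 genes was called in any comparison. Eomes and Igfbpl1 averaged under 0.5 FPKM in every fit and stayed below the filter on low values, and of the other 7 none reached an adjusted p under 0.05 by limma on log2(FPKM + 1) in any of 9 comparisons. The background was itself low. Of all genes tested, 0.154% were called for Hdac1 cKO against control (22 of 14265), 0.708% for 5XFAD against control, 0.662% for Hdac1 cKO/5XFAD against control, 0.00698% for Hdac1 cKO/5XFAD against 5XFAD, where the 1 gene called was Hdac1, and 1.49% for Hdac1 cKO/5XFAD against Hdac1 cKO. With all 20 mice in 1 model, 0.0139% were called for Hdac1 loss and 2.14% for 5XFAD, and no gene was called for the interaction between them, against 1290 at an unadjusted p under 0.05. In the nuclei the share was 0.0133%. The 22 calls for Hdac1 cKO against control became 2 to 290 with 1 mouse left out and 0 with the replicate block. Over the 7 genes and 9 comparisons, 5 of 63 differences had an unadjusted p under 0.05, all of them lower levels of Hes5 or Calb2. That is 7.94%, beside 9.31% over all genes and the same comparisons (4.7% to 11.7% in each). Neither this count nor the 0 of 7 called stands apart from the background.

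The thresholds that the study used for a differentially expressed gene, a change of at least 1.5-fold with an unadjusted p under 0.05, were met in 3 instances. Calb2 met them in Hdac1 cKO against control, where 3.36% of all genes did (2.87% as lower). Hes5 met them as lower in Hdac1 cKO/5XFAD against control, where 4.24% of genes did (2.02% as lower), and as lower in Hdac1 cKO/5XFAD against Hdac1 cKO, where 3.55% did (0.613% as lower). Calb2 no longer met them with all 4 groups in 1 fit, with the replicate block or with transthyretin in the model (unadjusted p = 0.0614, 0.0772 and 0.400 by limma). Hes5 against control no longer met them with a pseudocount of 0.1, quantile normalization or transthyretin (unadjusted p = 0.0521, 0.0508 and 0.0972 by limma). None of the 7 met them in 5XFAD against control (2.95% of all genes), Hdac1 cKO/5XFAD against 5XFAD (1.28%), Hdac1 loss (1.16%) and 5XFAD (2.24%) over all 20 mice, their interaction (4.07%) or the nuclei (2.58%). Over the 7 genes the median log2 fold change was -0.20 for Hdac1 cKO, -0.13 for 5XFAD and -0.24 for Hdac1 cKO/5XFAD, each against control. The median over all genes tested was -0.00068, -0.0088 and -0.0072 in the same comparisons. These 3 comparisons share the 4 control mice, so they do not count as separate evidence.

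**Figure D1:**
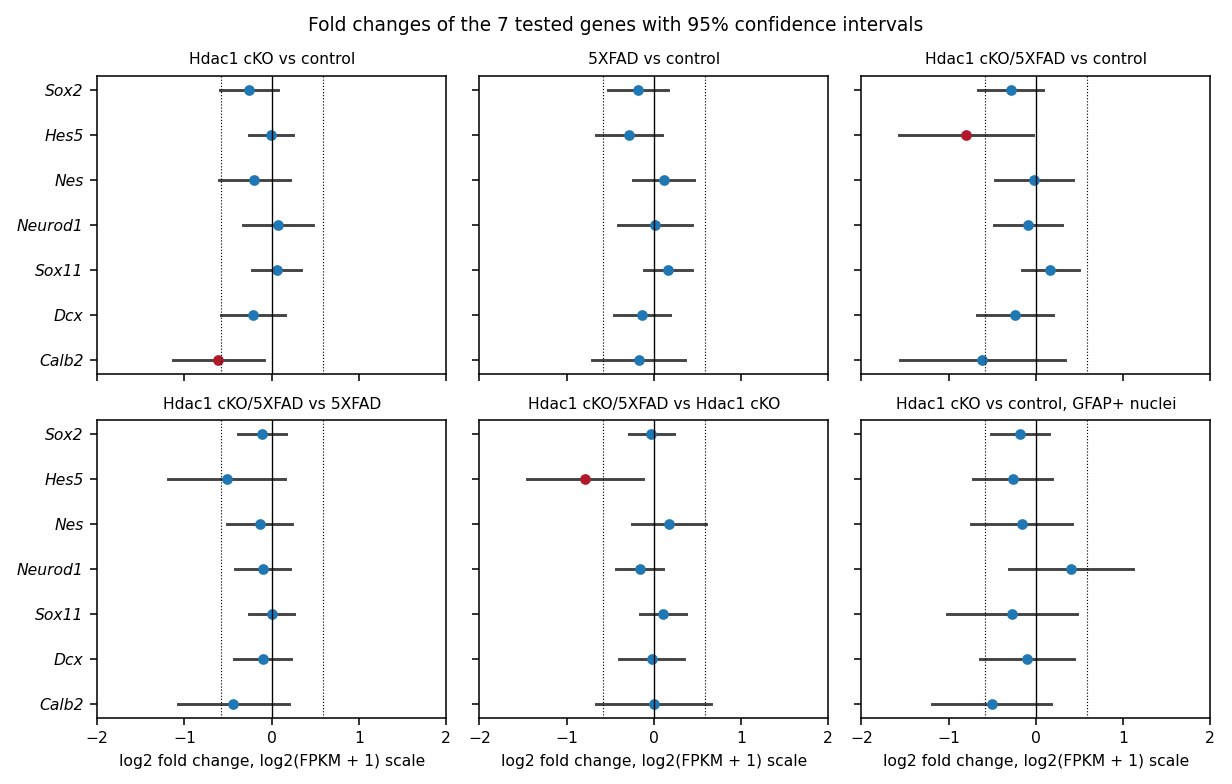
Log2 fold change of each tested gene on the log2(FPKM + 1) scale (points) with its 95% confidence interval from limma (lines), in 6 comparisons. Dotted lines mark a 1.5-fold change in either direction, and red points meet 1.5-fold with an unadjusted p under 0.05: Calb2 once (-0.61) and Hes5 in a pair of comparisons (-0.80 and -0.79).

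The intervals show how large a change the data left room for. On the log2(FPKM + 1) scale the 95% confidence interval for Hdac1 cKO against control lay within -1 and 1 for 6 of the 7 genes, all but Calb2. This scale shrinks the change of genes near 1 FPKM, so the limits were also turned back into FPKM. In FPKM the interval lay within 2-fold for 4 of the 7 (Sox11, Neurod1, Sox2 and Hes5) and within 1.5-fold for 3. For Dcx its lower limit was 0.456 FPKM, or 0.389 times the control level, and for Nes 0.674 FPKM, or 0.437 times, so a fall of more than 2-fold lay inside the interval of both. For 5XFAD against control the interval in FPKM lay within 2-fold for 6, all but Dcx, whose lower limit was 0.496 times the control level. In the nuclei, with 3 and 4 mice, it lay within 2-fold for Sox2 and Hes5 alone.

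Among the stem cell genes, Sox2 encodes the transcription factor that maintains neural stem cell identity (NCBIM37, chromosome 3, 34548927 to 34551383, plus strand). The control mice had 20.3, 21.4, 30.5 and 16.3 FPKM. The Hdac1 cKO mice had 16.0, 18.2, 16.0, 19.5 and 19.9 FPKM. The Hdac1 cKO values all lay inside or just under the range of the controls, and control mouse 3 stood well above every other mouse. The log2 difference was -0.26 (95% confidence interval -0.60 to 0.07, adjusted p = 0.546 by limma). Sox2 ran from 15.9 to 22.9 FPKM in 5XFAD (median 18.9) and was 18.6, 18.6, 19.0, 19.0 and 13.2 FPKM in Hdac1 cKO/5XFAD. Most of the Hdac1 cKO/5XFAD mice were nearly identical, and mouse 5 was lower. The difference from control was -0.18 for 5XFAD and -0.29 for Hdac1 cKO/5XFAD on the log2 scale (adjusted p = 0.722 and 0.593 by limma). Without control mouse 3 the differences from control shrank to -0.10 for Hdac1 cKO, -0.02 for 5XFAD and -0.13 for Hdac1 cKO/5XFAD. Behind each value stood 105 to 344 fragments.

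Nes encodes nestin, an intermediate filament of stem and progenitor cells, and its regulatory sequence drives the Cre of these mice (chromosome 3, 87775000 to 87784373, plus strand). It was scarce, with 18 to 82 fragments per library. Controls had 1.45, 1.73, 1.13 and 1.94 FPKM and Hdac1 cKO mice 1.48, 0.581, 1.24, 1.28 and 1.67 FPKM. The ranges overlapped except for Hdac1 cKO mouse 2, the lowest of all 20 mice. The log2 difference was -0.20 (95% confidence interval -0.60 to 0.21, adjusted p = 0.738 by limma). Nes ran from 1.06 to 2.01 FPKM in 5XFAD (median 1.92) and was 0.978, 2.20, 1.58, 0.995 and 2.01 FPKM in Hdac1 cKO/5XFAD. Both groups overlapped the controls, with log2 differences of 0.11 and -0.02 (adjusted p = 0.845 and 0.982 by limma).

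Hes5 encodes a basic helix-loop-helix repressor and is a direct target of Notch signalling, which acts through the DNA-binding protein RBPJ (chromosome 4, 154335032 to 154336480, plus strand). It had the largest log2 difference of the 7 tested genes, so its promoter is shown. The 250 bases before its RefSeq start site (GRCm38.p6, chr4:154960673-154960922, plus strand) hold the RBPJ core GTGGGAA on either strand 2 times, in capitals, starting 226 and 83 bases before the start site.
Hes5: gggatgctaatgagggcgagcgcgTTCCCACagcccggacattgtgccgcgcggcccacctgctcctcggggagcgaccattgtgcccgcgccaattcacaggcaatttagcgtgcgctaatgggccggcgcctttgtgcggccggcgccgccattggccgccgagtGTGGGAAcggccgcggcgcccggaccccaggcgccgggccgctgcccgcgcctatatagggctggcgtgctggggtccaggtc
The core (GTGGGAA, or TTCCCAC on the opposite strand) occurs in 1778 of 32841 promoter windows of this length, or 5.41%. RefSeq windows matched 7 of the 9 genes, Dcx with 2 of them, and no window but that of Hes5 held the core. Calb2 and Igfbpl1 had no entry. A GC box (GGGCGG, or CCGCCC on the opposite strand) occurred in 32.7% of all windows and in those of Sox11 (2), Neurod1 (4), Nes (2) and Sox2 (2). These matches describe letters in the windows and were not tested against the expression values.

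Hes5 stood at 13.5, 11.1, 15.7 and 14.3 FPKM in the controls and at 13.1, 12.7, 15.5, 12.7 and 13.4 FPKM in Hdac1 cKO. These groups were interleaved, with a log2 difference of -0.0084 (95% confidence interval -0.26 to 0.24, adjusted p = 0.988 by limma). In 5XFAD mice Hes5 ran from 8.74 to 17.0 FPKM with a median of 9.75, and 4 of the 6 mice were below every control. The log2 difference was -0.28 (SE 0.18, adjusted p = 0.598 by limma).

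The Hdac1 cKO/5XFAD mice had 7.52, 9.98, 11.8, 2.30 and 9.35 FPKM of Hes5. All 5 were below all 5 Hdac1 cKO mice, and 4 of the 5 were below every control. In the same comparison 128 of 14195 genes (0.902%) were lower without overlap, and 3.34% were separated in either direction. Hes5 was the 1 gene of the 9 to be separated in any of the 6 comparisons between a pair of groups. Among all genes the shares separated were 4.23% for Hdac1 cKO, 2.9% for 5XFAD and 4.27% for Hdac1 cKO/5XFAD against control, 0.607% for Hdac1 cKO/5XFAD against 5XFAD and 5.72% in the nuclei. The log2 difference from Hdac1 cKO was -0.79 (95% confidence interval -1.46 to -0.12, unadjusted p = 0.0244, adjusted p = 0.371 by limma). The exact permutation test over mice gave p = 0.00794, two-sided, which is the smallest that 252 regroupings allow and is not adjusted for the number of genes or comparisons. Against control the log2 difference was -0.80 (95% confidence interval -1.57 to -0.03, adjusted p = 0.451 by limma, exact permutation p = 0.0476). Against 5XFAD it was -0.51 (95% confidence interval -1.19 to 0.16, adjusted p = 0.757 by limma).

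Mouse 4 of the Hdac1 cKO/5XFAD group held much of this difference. Its Hes5 value rested on 18 fragments, for which counting error alone allows 10.7 to 28.4, although its library was among the deepest at 2.24 times the first control. Without it the log2 difference from control was -0.46 (unadjusted p = 0.0128, adjusted p = 0.368 by limma), under 1.5-fold, and that from Hdac1 cKO was -0.46 (unadjusted p = 0.00408, adjusted p = 0.183), while that from 5XFAD went from -0.51 to -0.18. The unadjusted p against control was above 0.05 without control mouse 1, 3 or 4 or Hdac1 cKO/5XFAD mouse 1 (0.0708 to 0.0963 by limma), and that against Hdac1 cKO without Hdac1 cKO mouse 3 (0.0516), with log2 differences of -0.73 to -0.81. Hdac1 cKO/5XFAD mouse 4 also had the highest summed level of 7 microglia markers (593 FPKM, against 344 to 484 in the other Hdac1 cKO/5XFAD mice, 146 to 170 in Hdac1 cKO, 139 to 179 in control and 288 to 349 in 5XFAD) and of 5 oligodendrocyte markers (1769 FPKM, against 1085 to 1286). It had the lowest sum of 6 mature granule cell markers, 73.0 FPKM against 99.4 to 106. The summed level of 7 astrocyte markers, which mark cells that express Hes5, was 1133 to 1274 FPKM in Hdac1 cKO/5XFAD and 942 to 1062 FPKM in Hdac1 cKO, without overlap. The separation rested on Gfap, since the sums of the other 6 markers overlapped, at 1019 to 1149 and 911 to 1033 FPKM. The part of these markers in the Hes5 values was not tested.

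Over all 20 mice, the log2 difference of Hes5 for 5XFAD, with the Hdac1 genotype in the model, was -0.54 (SE 0.19, unadjusted p = 0.0094, adjusted p = 0.205 by limma). That for Hdac1 loss was -0.29 (SE 0.19, adjusted p = 0.692 by limma). The interaction, which asks whether Hdac1 loss acts differently on the 2 backgrounds, was -0.51 (SE 0.37, adjusted p = 0.703 by limma). Without Hdac1 cKO/5XFAD mouse 4 these 3 values were -0.37 for 5XFAD, -0.10 for Hdac1 loss and -0.17 for the interaction.

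**Figure D2:**
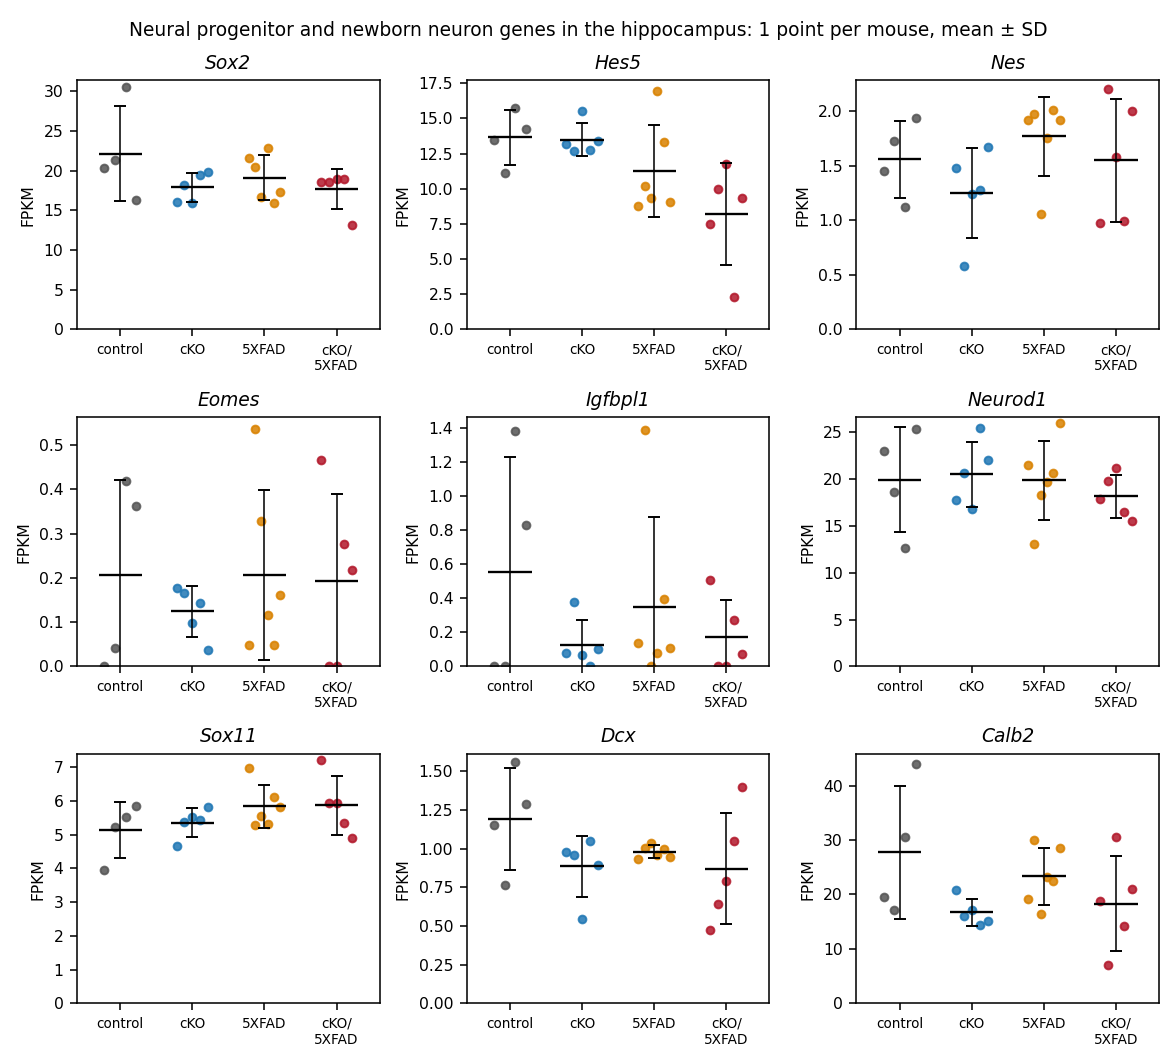
FPKM of the 9 genes in every hippocampal mouse, by genotype (points), with the group mean (horizontal bar) and SD (whiskers, which are cut at 0). Hes5 in the Hdac1 cKO/5XFAD mice (2.30 to 11.8 FPKM) lies below Hes5 in the Hdac1 cKO mice (12.7 to 15.5 FPKM), and in all other panels every pair of groups overlaps.

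Eomes and Igfbpl1 mark the intermediate steps. Eomes encodes Tbr2, the transcription factor of intermediate progenitors (chromosome 9, 118387330 to 118395250, plus strand), and Igfbpl1 a secreted protein related to insulin-like growth factor binding proteins that is used as a marker of late progenitors and neuroblasts (chromosome 4, 45822340 to 45839795, minus strand). Both were at the edge of detection. Eomes was covered by 0, 1, 5 and 6 fragments in the controls, 3, 3, 2, 3 and 1 in Hdac1 cKO, 1, 9, 4, 2, 1 and 4 in 5XFAD and 5, 0, 0, 7 and 4 in Hdac1 cKO/5XFAD. A count of 0 allows up to 3 fragments. In every group some mice thus held at most 1 fragment while others held several.

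Igfbpl1 was covered by 0, 0, 12 and 10 fragments in the controls and by 1, 5, 1, 0 and 2 in Hdac1 cKO. It had 2, 17, 0, 1, 6 and 2 fragments in 5XFAD and 4, 0, 0, 5 and 1 in Hdac1 cKO/5XFAD. Control mice 3 and 4 and 5XFAD mouse 2 stood above the rest, and all groups overlapped. On log2(FPKM + 1) without the filter, the difference between Hdac1 cKO and control was -0.37 for Igfbpl1 (exact permutation p = 0.294) and -0.08 for Eomes (exact permutation p = 0.476), both two-sided. With so few fragments and so wide a spread among mice of 1 group, no difference between genotypes could be shown.

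The mice with Eomes tended to be those with Igfbpl1. After the mean of each group was subtracted, log2(FPKM + 1) of the 2 genes was correlated over the 20 mice with r = 0.77 and rho = 0.71, the highest of the 36 pairs among the 9 genes, and r was 0.65 without the 2 mice farthest from the median. Both genes rest on few fragments of the same libraries. The 3 mice with most Igfbpl1 also had the highest summed levels of 7 subventricular and olfactory neuroblast markers, with 22.2 FPKM in control mouse 3, 23.2 in control mouse 4 and 20.8 in 5XFAD mouse 2, against 10.6 to 19.5 in the other mice. The summed level of 7 ependymal markers was 285, 341 and 176 FPKM in these mice, but control mouse 2, with 0 fragments of Igfbpl1, had 226 FPKM and Hdac1 cKO/5XFAD mouse 1, with 4 fragments, 217 FPKM. Ependymal sums were 150 to 341 FPKM over the controls and 78.5 to 130.5 FPKM over the Hdac1 cKO mice, without overlap. Choroid plexus sums, over 7 genes led by transthyretin, ran from 590 to 20467 FPKM in controls and from 59.8 to 1633 FPKM in Hdac1 cKO. The part of these markers in the values of Eomes and Igfbpl1 was not tested.

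**Figure D3:**
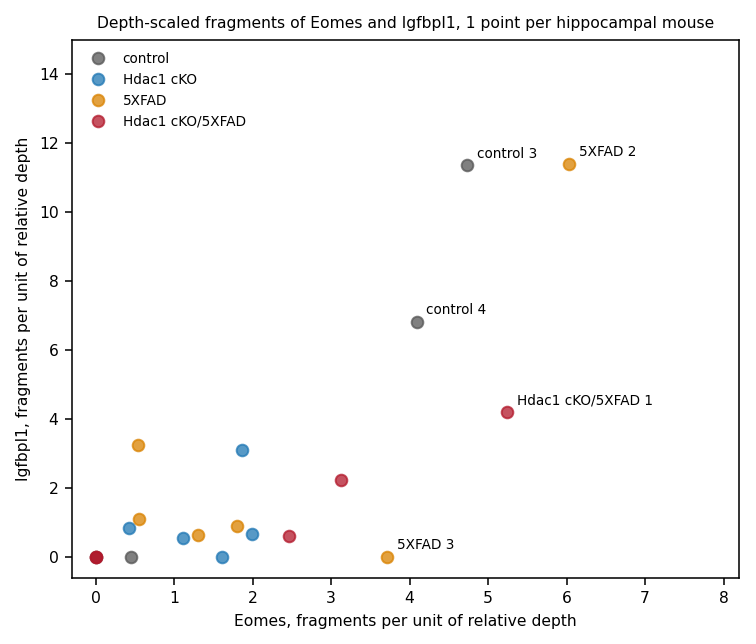
Fragments of Eomes (horizontal axis) and Igfbpl1 (vertical axis), each divided by the relative depth of the library, in the 20 hippocampal mice (points, coloured by genotype, of which 3 lie together at 0). Control mice 3 and 4 and 5XFAD mouse 2 hold the highest Igfbpl1 values, from 12, 10 and 17 fragments.

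Of the neuroblast and newborn neuron genes, Neurod1 encodes a basic helix-loop-helix factor that drives the neuronal fate of progenitors (chromosome 2, 79292678 to 79296908, minus strand). Controls had 23.0, 18.6, 12.7 and 25.4 FPKM and Hdac1 cKO mice 17.8, 20.6, 16.7, 25.4 and 22.0 FPKM, so the Hdac1 cKO mice lay within the range of the controls or at its upper edge. The log2 difference was 0.07 (95% confidence interval -0.33 to 0.47, adjusted p = 0.928 by limma). Neurod1 ran from 13.1 to 25.9 FPKM in 5XFAD (median 20.2) and was 17.8, 19.8, 21.1, 16.4 and 15.6 FPKM in Hdac1 cKO/5XFAD, inside the control range but for a single 5XFAD mouse above it. The log2 differences from control were 0.01 and -0.09 (adjusted p = 0.989 and 0.903 by limma).

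Sox11 encodes a transcription factor of immature neurons (chromosome 12, 28025562 to 28027574, minus strand). It varied least among the mice, with a coefficient of variation of 12.8% over all 20 and 106 to 367 fragments per library. Controls had 3.94, 5.23, 5.53 and 5.83 FPKM and Hdac1 cKO mice 4.65, 5.37, 5.52, 5.42 and 5.80 FPKM. The Hdac1 cKO values again lay wholly within those of the controls, with a log2 difference of 0.06 (95% confidence interval -0.22 to 0.34, adjusted p = 0.908 by limma). Sox11 ran from 5.29 to 6.97 FPKM in 5XFAD (median 5.69) and was 7.22, 5.94, 5.92, 5.33 and 4.90 FPKM in Hdac1 cKO/5XFAD. The difference from control was 0.16 in each (adjusted p = 0.690 and 0.754 by limma).

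Dcx encodes doublecortin, the microtubule-associated protein by which migrating neuroblasts and immature granule neurons are usually recognised (chromosome X, 140290385 to 140367854, minus strand). Its level was near 1 FPKM, on 13 to 67 fragments per library. Controls had 1.16, 0.767, 1.56 and 1.29 FPKM and Hdac1 cKO mice 0.978, 0.960, 0.547, 1.05 and 0.893 FPKM. Of the 4 controls, 3 were above all Hdac1 cKO mice, and control mouse 2 was below all but Hdac1 cKO mouse 3. The log2 difference was -0.21 (95% confidence interval -0.58 to 0.15, adjusted p = 0.681 by limma, exact permutation p = 0.151). Dcx was close to constant in 5XFAD, at 0.932 to 1.04 FPKM (median 0.979), and spread widely in Hdac1 cKO/5XFAD, at 0.477, 0.643, 0.790, 1.05 and 1.40 FPKM. Their log2 differences from control were -0.13 and -0.24 (adjusted p = 0.793 and 0.736 by limma).

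Calb2 encodes calretinin, a calcium-binding protein made for a short period by newborn granule neurons and permanently by interneurons and mossy cells (chromosome 8, 112661402 to 112692110, minus strand). Controls had 19.5, 17.1, 30.5 and 43.9 FPKM and Hdac1 cKO mice 20.8, 16.0, 17.2, 14.5 and 15.2 FPKM. Control mice 3 and 4 were above all Hdac1 cKO mice, while control mice 1 and 2 were within their range. The log2 difference was -0.61 (95% confidence interval -1.14 to -0.09, unadjusted p = 0.0254, adjusted p = 0.337 by limma, exact permutation p = 0.0556). Without either of these controls the difference was smaller: it was -0.37 without control mouse 4 (unadjusted p = 0.0644 by limma) and -0.54 without control mouse 3 (unadjusted p = 0.0733 by limma). The unadjusted p was also above 0.05 without Hdac1 cKO mouse 4 or 5 (0.0576 and 0.0526 by limma). Control mice 3 and 4 also had the highest thalamic marker sums of the 9 mice compared, 41.0 and 88.2 FPKM against 24.9 to 30.7 FPKM over the others. Their ependymal sums, 285 and 341 FPKM, were the highest too. So were their sums of subventricular and olfactory neuroblast markers, 22.2 and 23.2 FPKM against 11.3 to 16.6 FPKM over the others. With transthyretin in the model the difference was -0.38. The summed levels of 7 interneuron markers overlapped, with 1119 to 1383 FPKM in controls and 1109 to 1384 FPKM in Hdac1 cKO. Those of 3 mossy cell markers, which were low, overlapped too, with 1.30 to 2.00 FPKM in controls and 1.27 to 1.81 FPKM in Hdac1 cKO. The part of these markers in the Calb2 values was not tested.

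Calb2 ran from 16.5 to 30.0 FPKM in 5XFAD (median 22.9) and was 18.9, 7.01, 30.5, 14.2 and 21.1 FPKM in Hdac1 cKO/5XFAD. Both groups overlapped the controls, with log2 differences of -0.17 and -0.61 (adjusted p = 0.840 and 0.665 by limma). Against 5XFAD, the Hdac1 cKO/5XFAD mice differed by -0.44 (95% confidence interval -1.08 to 0.20, adjusted p = 0.780 by limma). Without Hdac1 cKO/5XFAD mouse 2, the lowest, the difference was -0.16 from 5XFAD and -0.33 from control, and the latter was -0.37 without control mouse 4. Over all 20 mice the log2 difference for Hdac1 loss was -0.52 (SE 0.20, unadjusted p = 0.0185, adjusted p = 0.413 by limma), and that for 5XFAD was -0.09 (SE 0.20). The interaction was 0.17 (SE 0.42, adjusted p = 0.925 by limma).

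Ordered by mean FPKM in the control hippocampus, the genes ran Calb2 (27.8 ± 12.3, SD, n = 4), Sox2 (22.1 ± 6.00), Neurod1 (19.9 ± 5.59), Hes5 (13.6 ± 1.93), Sox11 (5.13 ± 0.830), Nes (1.56 ± 0.352), Dcx (1.19 ± 0.329), Igfbpl1 (0.552 ± 0.676) and Eomes (0.206 ± 0.216). Each of the first 3 overlapped the next in the order, so those neighbours did not differ beyond their spread. Hes5 lay wholly above Sox11, and Sox11 above Nes, and the last 4 again overlapped. Calb2 was in the top 11.5% of all listed genes and Eomes at 65.2%. These are levels per kilobase, although the libraries read the 3′ end of each transcript, so that the order between genes depends on transcript length as well as on abundance.

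The sorted nuclei gave another order. These libraries were made by a method that covers whole transcripts, so levels are set beside those of the tissue without a test. Hes5 was the highest of the 9, at 1057, 865 and 732 FPKM in the controls, within the top 0.242% of all genes. In the Hdac1 cKO nuclei it was 807, 551, 689 and 918 FPKM, overlapping the controls (log2 difference -0.26, 95% confidence interval -0.72 to 0.19, adjusted p = 0.984 by limma). Sox2 followed at 136, 115 and 117 FPKM in controls and 112, 91.8, 104 and 126 FPKM in Hdac1 cKO, with a log2 difference of -0.18 (95% confidence interval -0.51 to 0.15, adjusted p = 0.984 by limma). For both genes at least 1 Hdac1 cKO mouse lay within the control range.

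The neuronal genes were low in the nuclei. Neurod1, at 19.9 FPKM on average in the control hippocampus, was 0.372, 0.343 and 0.183 FPKM in control nuclei and 0.673, 1.33, 0.0422 and 1.14 FPKM in Hdac1 cKO nuclei, from 1 to 24 fragments. Of the 4 Hdac1 cKO samples, 3 were above all controls and the remaining sample was below all of them (log2 difference 0.40, 95% confidence interval -0.30 to 1.11, adjusted p = 0.984 by limma, exact permutation p = 0.257). Calb2 was 1.49, 2.75 and 4.91 FPKM in control nuclei and 1.52, 1.24, 2.29 and 1.76 FPKM in Hdac1 cKO nuclei, with overlap (log2 difference -0.51, 95% confidence interval -1.20 to 0.18, adjusted p = 0.984 by limma). Dcx was 0.445, 0.621 and 0.783 FPKM in controls and 0.451, 0.434, 0.662 and 0.453 FPKM in Hdac1 cKO.

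Sox11 and Nes were at levels of the same order in nuclei and tissue. Sox11 was 5.87, 6.74 and 2.65 FPKM in control nuclei and 5.70, 2.38, 2.72 and 5.24 FPKM in Hdac1 cKO nuclei. Each group thus held both high and low samples, with a log2 difference of -0.27 (95% confidence interval -1.02 to 0.48, adjusted p = 0.984 by limma). Nes was 1.79, 2.90 and 3.76 FPKM in controls and 1.95, 3.06, 2.53 and 1.90 FPKM in Hdac1 cKO (log2 difference -0.16, 95% confidence interval -0.74 to 0.41, adjusted p = 0.990 by limma). Differences in the nuclei moved with single mice. With each left out in turn they ran from -0.61 to -0.06 for Sox11, from -0.81 to -0.19 for Calb2, from -0.39 to -0.13 for Hes5, from -0.26 to -0.11 for Sox2 and from 0.34 to 0.64 for Neurod1. Eomes was covered by 1 to 12 fragments and Igfbpl1 by 0 to 10. The 7 astrocyte markers summed to 2650 to 3258 FPKM in the nuclei and to 932 to 1274 FPKM in the hippocampus. The 6 neuron markers summed to 189 to 284 FPKM in the nuclei and to 1356 to 1688 FPKM in the hippocampus. The summed astrocyte markers were thus higher in the nuclei and the neuronal ones lower. Gfap itself, the protein used for the sort, was at 53.9 to 93.5 FPKM in the nuclei, above control and Hdac1 cKO hippocampus (23.4 to 32.0 FPKM) but not above 5XFAD and Hdac1 cKO/5XFAD hippocampus (81.3 to 176 FPKM). Of other cells, 8 endothelial and mural cell markers were higher there too, with sums of 206 to 351 FPKM against 44.3 to 77.6 FPKM in the hippocampus, and 6 oligodendrocyte precursor markers overlapped, at 68.2 to 186 and 47.0 to 76.5 FPKM. Microglia markers were lower, at 33.4 to 77.3 against 139 to 593 FPKM, and ependymal markers ran from 63.0 to 96.8 against 78.5 to 341 FPKM. The part of these cells in the values of the nuclei was not tested.

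**Figure D4:**
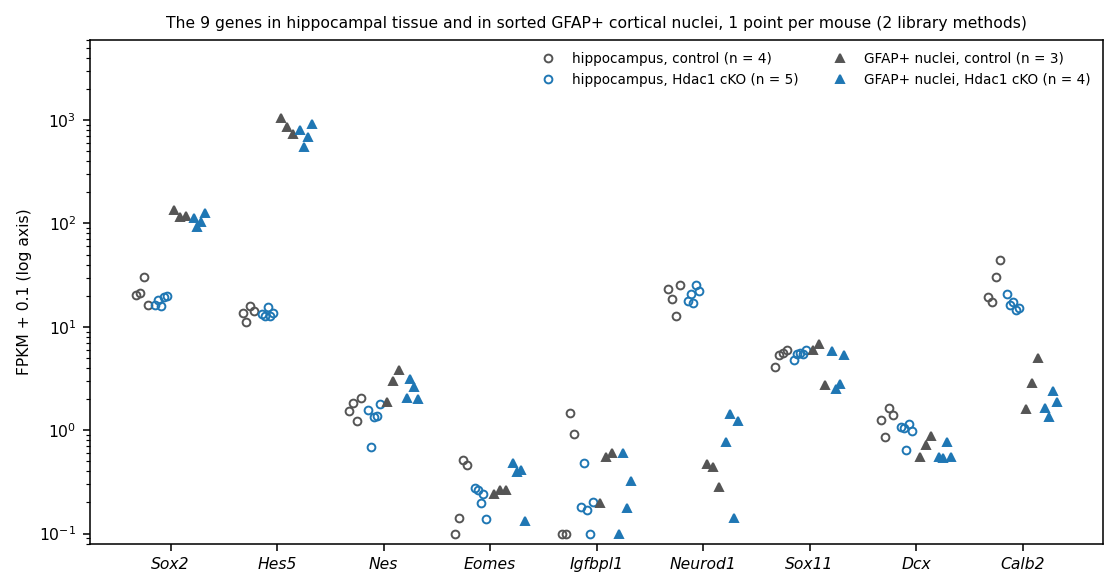
FPKM of the 9 genes, plus 0.1 to show values of 0, on a log axis, in control and Hdac1 cKO hippocampus (open circles) and GFAP+ cortical nuclei (filled triangles), with 1 point per mouse. Hes5 (551 to 1057 FPKM) and Sox2 (91.8 to 136 FPKM) lie highest in the nuclei, where Neurod1 is at most 1.33 FPKM.

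A further 5 lists of genes of the lineage were read in the same fits. None of the 9 genes is in them. Of 15 genes of radial glia-like stem cells, 13 were tested in the hippocampus. For Hdac1 loss over all 20 mice 0 of these 13 were called, with a median log2 difference of -0.02 beside 0.0016 over all genes. For 5XFAD over all 20 mice 1 of 13 was called as higher and 0 as lower, with a median of -0.13 beside -0.013, while 2.14% of all genes were called in that fit. The gene called was Vim, which encodes the intermediate filament vimentin of stem cells and reactive astrocytes.

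Vim was 19.6, 18.6, 31.0 and 27.6 FPKM in controls and 18.6, 18.6, 15.6, 15.5 and 18.0 FPKM in Hdac1 cKO. In 5XFAD it ran from 41.2 to 83.9 FPKM, and in Hdac1 cKO/5XFAD it was 59.2, 60.9, 53.9, 181 and 37.4 FPKM. All 5XFAD mice were above all controls, a comparison in which 2.9% of all genes were separated in either direction. All Hdac1 cKO/5XFAD mice were above all Hdac1 cKO mice, where 3.34% were. For 5XFAD over all 20 mice Vim rose by 1.53 on the log2 scale (SE 0.22, adjusted p = 0.000213 by limma). Between single pairs of groups, Vim was not called in Hdac1 cKO/5XFAD against control (1.46, SE 0.42, adjusted p = 0.247 by limma). It was called as higher in 5XFAD against control (1.16, SE 0.20, adjusted p = 0.0152 by limma) and in Hdac1 cKO/5XFAD against Hdac1 cKO (1.90, SE 0.35, adjusted p = 0.0309 by limma). These 2 calls were lost with the replicate block and with transthyretin in the model (adjusted p = 0.059 and 0.0549 for 5XFAD, 0.129 and 0.0788 for Hdac1 cKO/5XFAD, by limma), and that for 5XFAD with all 4 groups in 1 fit (0.0942). They also depended on single mice, with an adjusted p of 0.0529 or 0.0576 for 5XFAD without control mouse 1 or 2, and of 0.0510 to 0.0964 for Hdac1 cKO/5XFAD without any of the 5 Hdac1 cKO mice or without its own mouse 1, 2 or 3. Gfap, the astrocyte filament, averaged 25.1 and 27.7 FPKM in control and Hdac1 cKO and 97.5 and 115 FPKM in 5XFAD and Hdac1 cKO/5XFAD. Microglia marker sums were 288 to 593 FPKM in the mice with the 5XFAD transgenes and 139 to 179 FPKM in the others. Hdac1 cKO/5XFAD mouse 4, the highest for Vim, also had the highest microglia sum. The part of astrocytes and microglia in the Vim values was not tested.

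Hopx, which encodes a homeodomain protein of radial glia-like stem cells and astrocytes, had the smallest p of these lists for Hdac1 loss but was not called. It was 38.0, 39.3, 32.5 and 46.0 FPKM in controls and 67.9, 59.0, 46.9, 56.0 and 42.5 FPKM in Hdac1 cKO. In 5XFAD it ran from 23.8 to 38.8 FPKM, and in Hdac1 cKO/5XFAD it was 67.9, 42.1, 58.3, 37.4 and 47.3 FPKM. Only the lowest Hdac1 cKO mouse was within the range of the controls, and only the lowest Hdac1 cKO/5XFAD mouse within that of 5XFAD. The log2 difference for Hdac1 loss over all 20 mice was 0.57 (SE 0.11, unadjusted p = 4.73e-05, adjusted p = 0.117 by limma). In the nuclei Hopx was 99.3, 84.9 and 61.6 FPKM in controls and 152, 119, 140 and 143 FPKM in Hdac1 cKO, without overlap, as were 5.72% of all genes tested there (log2 difference 0.77, SE 0.18, unadjusted p = 0.00128, adjusted p = 0.978 by limma).

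In the Notch pathway, 18 of 22 listed genes were tested over the 20 mice. For Hdac1 loss 0 of 18 were called (median log2 difference -0.02). For 5XFAD 1 of 18 was called as lower and 0 as higher, with a median of 0.02 beside -0.013 over all genes, of which 2.14% were called (21 of 14389 as lower). The gene called was Nrarp, a Notch target that encodes a feedback inhibitor of the pathway. Nrarp was 4.40, 3.78, 3.43 and 3.17 FPKM in controls and 3.61, 3.30, 4.04, 2.56 and 4.51 FPKM in Hdac1 cKO. It ran from 1.22 to 2.57 FPKM in 5XFAD and was 2.44, 2.38, 2.92, 1.96 and 3.18 FPKM in Hdac1 cKO/5XFAD. All 5XFAD mice were below all controls, a comparison in which 2.9% of all genes were separated, and the groups with Hdac1 deleted overlapped. Nrarp fell by 0.46 on the log2 scale for 5XFAD over all 20 mice (SE 0.11, adjusted p = 0.0203 by limma), and the adjusted p was 0.0573 without control mouse 1. Microglia marker sums were 288 to 593 FPKM in the mice with the 5XFAD transgenes against 139 to 179 FPKM in the others, and Gfap 81.3 to 176 against 23.4 to 32.0 FPKM, and their part in the Nrarp values was not tested. Nrarp was not called between single pairs of groups, with -0.56 for 5XFAD against control, -0.40 for Hdac1 cKO/5XFAD against control and -0.36 against Hdac1 cKO (adjusted p = 0.207, 0.402 and 0.434 by limma).

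The other 3 lists gave no calls. Of 7 intermediate progenitor genes 4 were tested over the 20 mice, of 18 neuroblast and immature neuron genes 17, and of 15 proliferation genes 10. For Hdac1 loss their median log2 differences were -0.02, 0.05 and -0.02, and for 5XFAD -0.08, 0.01 and 0.12. The genes with the smallest p for Hdac1 loss were Elavl4, which encodes a neuronal RNA-binding protein, among the neuroblast genes (0.29, SE 0.08, adjusted p = 0.290 by limma) and Birc5, which encodes survivin, among the proliferation genes (0.33, SE 0.11, adjusted p = 0.339 by limma). Mki67, the usual marker of dividing cells, averaged 0.22 to 0.28 FPKM in the 4 hippocampal groups, under the filter.

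**Figure D5:**
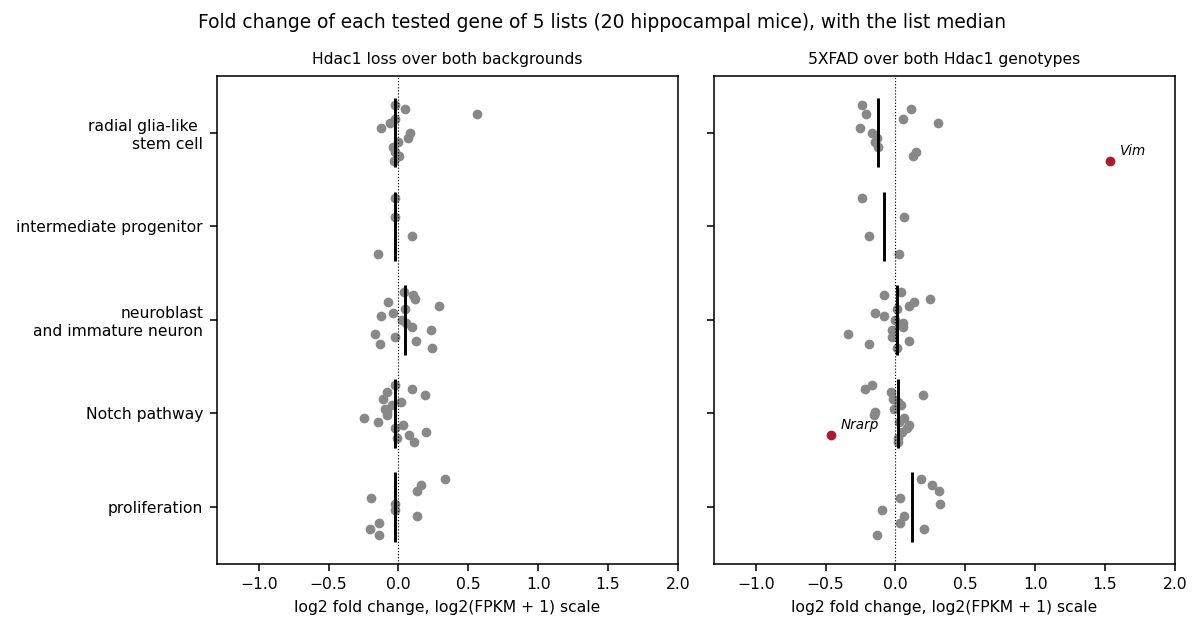
Log2 fold change of each tested gene of 5 lists (points) with the median of the list (vertical bar), for Hdac1 loss (left) and 5XFAD (right), from 1 limma model over 20 hippocampal mice. Red marks the genes with an adjusted p under 0.05, which are Vim (1.53) and Nrarp (-0.46), both for 5XFAD.

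For each of the 9 genes, those most like it were sought by the Pearson correlation of log2(FPKM + 1) over the 20 hippocampal mice after subtraction of group means, among the 12995 genes that averaged 1 FPKM or more. The mice share their libraries and dissection, so these values are descriptions. Each is also the highest r of a search over all these genes in 20 mice, which favours high values. How high an r such a search gives between unrelated genes was not tested. Calb2 was most like Arhgap6 (r = 0.86, rho = 0.89), Neurod1 most like A230073K19Rik (r = 0.86, rho = 0.81) and Igfbpl1 most like Flna (r = 0.85, rho = 0.76). Hes5 was most like Jph4 (r = 0.82, rho = 0.75) and Sox11 most like Spef2 (r = 0.82, rho = 0.72). Eomes was most like Slc31a1 (r = 0.80, rho = 0.84), followed by Dynlrb2 (r = 0.80, rho = 0.81), which is among the ependymal markers. Nes was most like Gsk3b (r = 0.79, rho = 0.75), Sox2 most like Wdsub1 (r = 0.79, rho = 0.66) and Dcx most like Mul1 (r = 0.78, rho = 0.59). With group means left in, only the first gene of Calb2, Neurod1 and Nes remained the highest. The r of Dcx with Mul1 was then 0.47 (position 233), of Sox11 with Spef2 0.50 (position 169), of Sox2 with Wdsub1 0.65 (position 23), of Hes5 with Jph4 0.70 (position 19), of Eomes with Slc31a1 0.68 (position 14) and of Igfbpl1 with Flna 0.73 (position 7). Of the 6 genes of the 9 that averaged 1 FPKM or more and could be found this way, none was among the 3 most like another, while Dcx, Eomes and Igfbpl1 were below that level and were not candidates.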

How the data were processed

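The deposited FPKM tables, 1 per mouse, were made by the authors. Hippocampal RNA was extracted with TRIzol, DNase-treated and sequenced as 3′ digital gene expression libraries; reads were collapsed, aligned with TopHat and quantified with Cufflinks 2.0.0 on UCSC mm9 annotation. RNA of the sorted nuclei was amplified with SMART-Seq v4. The aligner of the nuclei is not given in the sources used here beyond a list of tools in the submitters' processing notes. FPKM divides by transcript length although 3′ libraries read 1 end, which distorts levels between genes. Whether it also affects the comparison of a gene between mice was not tested. Total counts were not used here, and relative depth came from the FPKM steps of low genes.

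FPKM are not counts, so genes that averaged 0.5 FPKM or more were tested on log2(FPKM + 1) with limma 3.58.1 (R 4.3.3, trend and robust moderation), which understates changes of low genes, with Benjamini-Hochberg adjustment over all genes tested and a threshold of 0.05. Pairwise fits held only the groups compared. Hdac1 loss and 5XFAD were also fitted over 20 mice, with and without interaction. Single values were compared by two-sided exact permutation tests that enumerated all regroupings of the mice. The limits of counting error were computed with scipy 1.17.1. Tissue and nuclei were never tested against each other. The code was tested on simulated data.

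The 9 genes, the lists and the tests were chosen with earlier results of these data known. Named genes were the 9, Hdac1, in each list up to 4 called genes or the 2 with the smallest p, of which the text gives a part, and the 3 most like each of the 9. Alternatives were a pseudocount of 0.1, no filter or 1 FPKM, quantile and median scaling, limma without trend or robust moderation, the ratio of mean FPKM as the fold, all groups in 1 fit, the replicate number as a block, Ttr as a covariate, and leaving out each mouse.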

Additional observations from a re-analysis of the deposited data

Results flagged for a closer look

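In 5 of 45 sets of values, each a gene in a group of 4 or more mice, the highest or lowest mouse stood farther from its nearest neighbour, relative to the range of the group, than Dixon's 95% limit allows. Chance gives about 1 in 20 such sets. Dcx was 0.547 FPKM in hippocampal Hdac1 cKO mouse 3, the lowest of its group. In the GFAP+ nuclei it was 0.662 FPKM in Hdac1 cKO sample 3, the highest of its group. The shared number does not link these samples to the same mouse. Nes was 1.06 FPKM in 5XFAD mouse 3, the lowest. Sox2 was 13.2 FPKM in Hdac1 cKO/5XFAD mouse 5, the lowest, and Hes5 was 15.5 FPKM in Hdac1 cKO mouse 3, the highest.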

How the results depend on the processing

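No alternative made any of the 7 tested genes pass an adjusted p of 0.05; the smallest was 0.111 with a mouse left out (Hes5, 5XFAD over all 20 mice, without 5XFAD mouse 4) and 0.133 otherwise. Of 63 differences, 21 changed sign under some setting, all of them 0.20 or smaller on the log2 scale in the reported fit, and in every case the cause was not tested. The count of genes past 1.5-fold and an unadjusted p under 0.05 for Hdac1 cKO against control went from 1 to 0 with all 4 groups in 1 fit, with the replicate block and with Ttr as a covariate. For Hdac1 cKO/5XFAD against control it went from 1 to 0 with a pseudocount of 0.1, quantile normalization and Ttr, and for 5XFAD over all 20 mice from 0 to 1 with a pseudocount of 0.1. With each mouse left out in turn it was 0 to 1 in these 3 and in Hdac1 cKO/5XFAD against 5XFAD and against Hdac1 cKO, Hdac1 loss over all 20 mice and the nuclei.

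Changed signs, as log2 differences, were as follows. With Ttr, Hdac1 cKO against control gave Neurod1 -0.15, Nes 0.039 and Hes5 0.014, 5XFAD against control gave Neurod1 -0.071, Hdac1 cKO/5XFAD against 5XFAD gave Sox11 0.043 and against Hdac1 cKO gave Dcx 0.034. Quantile normalization gave 0.0071 (Hes5, Hdac1 cKO against control), 0.0095 (Nes, Hdac1 cKO/5XFAD against control) and 0.014 (Sox11, Hdac1 cKO/5XFAD against 5XFAD). Median scaling gave 0.0089 for this Hes5 and 0.0017 for this Sox11 difference. The ratio of mean FPKM, not run over all 20 mice, gave Neurod1 -0.0035 in 5XFAD against control, Sox11 0.0044 in Hdac1 cKO/5XFAD against 5XFAD and Calb2 0.13 in Hdac1 cKO/5XFAD against Hdac1 cKO.

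With each mouse left out in turn, Hdac1 cKO against control ran from -0.041 to 0.11 for Sox11, from -0.12 to 0.20 for Neurod1 and from -0.096 to 0.059 for Hes5. 5XFAD against control ran from -0.18 to 0.14 for Neurod1 and from -0.36 to 0.073 for Calb2. Hdac1 cKO/5XFAD against control ran from -0.28 to 0.035 for Neurod1 and from -0.11 to 0.062 for Nes. Against 5XFAD, Sox11 ran from -0.068 to 0.052. Against Hdac1 cKO, Dcx ran from -0.12 to 0.055, Sox2 from -0.064 to 0.070 and Calb2 from -0.21 to 0.28. Over all 20 mice, Hdac1 loss ran from -0.017 to 0.056 for Sox11 and from -0.11 to 0.019 for Neurod1, and 5XFAD from -0.19 to 0.046 for Calb2. The interaction ran from -0.13 to 0.040 for Sox11, -0.30 to 0.016 for Neurod1, -0.061 to 0.15 for Nes, -0.0087 to 0.28 for Sox2 and -0.074 to 0.46 for Calb2. In the nuclei Nes ran from -0.37 to 0.013.

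Counts over all genes moved more. Calls for Hdac1 cKO against control ran from 2 to 290 with a mouse left out (22 in the reported fit) and were 0 with the replicate block. Calls for 5XFAD against control fell from 102 to 48 with the block. Calls for Hdac1 cKO/5XFAD against control were 95 in the reported fit, 29 with Ttr, 220 with all 4 groups in 1 fit and as few as 41 without control mouse 4. Where the reported fit gave 0 to 2 calls, other settings gave at most 9. The count past 1.5-fold with an unadjusted p under 0.05 went from 425 to 684 (5XFAD against control) and from 184 to 330 (Hdac1 cKO/5XFAD against 5XFAD) by the ratio of mean FPKM, and from 167 to 359 (Hdac1 loss) and from 322 to 580 (5XFAD, both over all 20 mice) with a pseudocount of 0.1. Mice with the same replicate number did not deviate together (r from -0.12 to 0.10 over 30 such pairs, 6 of them the best match), so the numbers do not pair the samples. The replicate block also changed the sign of Neurod1, to -0.11 in 5XFAD against control and to 0.016 for Hdac1 loss. With the block and with Ttr, calls were lost while the differences kept their size: Hdac1 in Hdac1 cKO against control (-1.19 and -1.10, adjusted p = 0.159 and 0.590 by limma) and in Hdac1 cKO/5XFAD against control (-1.64 and -1.52, 0.0527 and 0.0744), and Vim in 5XFAD against control (1.25 and 1.17, 0.059 and 0.0549) and in Hdac1 cKO/5XFAD against Hdac1 cKO (1.90 and 1.86, 0.129 and 0.0788). Vim in 5XFAD against control was also lost with all 4 groups in 1 fit (adjusted p = 0.0942). Eomes, Igfbpl1 and, in the nuclei, Neurod1 rest on few fragments, with a wide spread among mice of 1 group.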
